A study of Mus musculus with 9 samples.

Results

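Pressure-sensing channel genes were followed in retinal ganglion cells (RGCs), the output neurons of the retina, after elevation of intraocular pressure (IOP). The 9 genes were Piezo1, Piezo2, Trpv1, Trpv2, Trpv4, Trpc1, Panx1, P2rx4 and P2rx7, chosen by symbol from the 23997 gene symbols listed in each library. The RGCs came from C57BL/6J mice aged 8 weeks. Control eyes had received saline. The other eyes had received microbeads in the anterior chamber at 6 weeks of age and had 2 weeks of IOP elevation, and they were placed in Mild IOP or Moderate IOP by the size of the rise. RGCs were purified by immunopanning, in which dishes that bind microglia, macrophages, endothelium and amacrine cells were used before a final dish coated for Thy1.2. Each group contributed 1 pool of RNA, made into 3 libraries, which gave 9 libraries in all. By the paper's methods, the Moderate IOP pool drew on fewer retinas than the Control and Mild IOP pools. Differences between groups are thus differences between pools, and errors and p-values here measure technical spread, not spread between animals.

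Piezo1 and Piezo2 form channels that are opened directly by stretch of the membrane. Trpv1, Trpv2, Trpv4 and Trpc1 are cation channel subunits of the Trp family, which respond to heat, swelling, stretch or emptied calcium stores, and pressure-evoked calcium entry in RGCs has been linked to Trpv4 and Trpv1. Panx1 forms a large pore through which stretched or swollen cells release ATP, and P2rx4 and P2rx7 are channels that ATP opens from outside the cell.

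Expression was measured as FPKM, a count of sequenced fragments corrected for transcript length and library size, divided here by a scaling factor for each library (0.983 to 1.058). The fragments behind a value were derived from its confidence interval, and the derived depth of the libraries lay between 4590000 and 8220000 fragments. Group values are scaled FPKM, mean ± SD (n = 3 technical replicates). Log2 fold changes are differences in log2(scaled FPKM + 1), which understates the change of low genes, and they were tested with limma at an FDR below 0.1 over 13043 genes with a mean of at least 0.5. Panx1, P2rx4, Trpv2 and Trpc1 passed this filter, and the other 5 members did not.

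The start regions of Panx1, P2rx4 and P2rx7 are printed because Panx1 was the only member called in any comparison, and because P2rx4 and P2rx7, neighbours of one receptor family on chromosome 5 with 16124 bases between them, lay at opposite ends of detection. Each run is the 250 bases before the RefSeq start (GRCm38.p6), 5′ to 3′ on the gene's strand, with each CG in capitals. The Panx1 region is chr9:15045479-15045728, minus strand, that of P2rx4 is chr5:122707294-122707543, plus strand, and that of the first P2rx7 start is chr5:122643677-122643926, plus strand. The RefSeq start of P2rx7 lies slightly inside the locus as the files list it, so the last bases of its run fall within that locus.
Panx1: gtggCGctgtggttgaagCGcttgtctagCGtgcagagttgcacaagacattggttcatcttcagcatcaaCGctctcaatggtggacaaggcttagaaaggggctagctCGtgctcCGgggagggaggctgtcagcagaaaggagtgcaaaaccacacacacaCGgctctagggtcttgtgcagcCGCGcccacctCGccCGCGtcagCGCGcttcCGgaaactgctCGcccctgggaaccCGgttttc
P2rx4: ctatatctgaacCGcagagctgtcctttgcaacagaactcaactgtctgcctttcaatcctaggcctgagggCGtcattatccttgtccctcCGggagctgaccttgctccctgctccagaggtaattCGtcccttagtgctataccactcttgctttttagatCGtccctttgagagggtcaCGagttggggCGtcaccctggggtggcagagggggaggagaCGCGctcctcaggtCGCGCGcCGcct
P2rx7: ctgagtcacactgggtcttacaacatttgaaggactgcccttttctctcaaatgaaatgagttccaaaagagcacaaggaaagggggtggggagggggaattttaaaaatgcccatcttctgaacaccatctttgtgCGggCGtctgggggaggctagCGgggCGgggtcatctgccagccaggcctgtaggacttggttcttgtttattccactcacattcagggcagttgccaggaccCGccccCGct
The letters CG occurred 17 times before Panx1, 13 times before P2rx4 and 6 times before P2rx7. The median over 32851 promoters of this length was 6, and 23.5% of them held at least as many as Panx1. The GC box letters GGGCGG, searched on both strands, were present before P2rx7 and absent before Panx1 and P2rx4, and 32.7% of all promoters held them. The letters TATAAA, on both strands, were absent from all 3 regions and present in 12.4% of promoters. Such regions were read for 8 of the 9 members.

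Detection divided the members into 4 expressed genes and 5 genes at or near 0. Mean scaled FPKM over the 9 libraries was 13.6 for Panx1, 7.07 for P2rx4, 6.81 for Trpv2 and 4.12 for Trpc1, which placed them above 78.6%, 70.4%, 69.9% and 63.6% of all genes. Panx1 was higher than P2rx4 in 9 of 9 libraries, and Trpv2 was higher than Trpc1 in 9 of 9. P2rx4 and Trpv2 could not be ordered, since P2rx4 was the higher in 4 libraries and the lower in 5. Below these came Piezo1 at 0.166, Trpv4 at 0.0616, Trpv1 at 0.025, P2rx7 at 0.00604 and Piezo2 at 0.00209. Of the 81 values of members in libraries, 32 were listed at 0, and 29.2% of all genes were listed at 0 in every library.

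**Figure D1:**
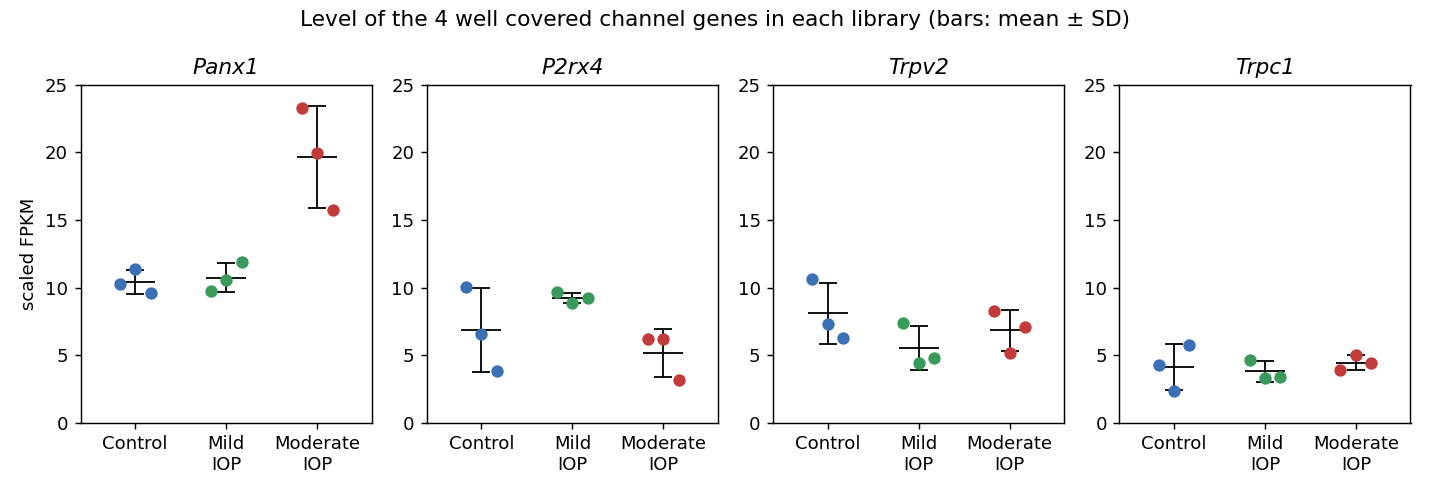
Scaled FPKM of Panx1, P2rx4, Trpv2 and Trpc1 in each of the 9 libraries, by group, with points for libraries and the group mean ± SD (n = 3 technical replicates). The Panx1 values of Moderate IOP (15.8 to 23.3) lie above those of Control (9.60 to 11.4) and Mild IOP (9.75 to 11.9), whereas the groups of Trpv2 and of Trpc1 overlap.

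The directly stretch-gated channels were scarcely detected. Piezo1 (chr8:122481698-122551329, minus strand, mm10), whose product forms a calcium-permeable stretch channel, rested on 5.04, 8.02 and 18.8 fragments in Control, 0, 13.8 and 6.11 in Mild IOP, and 3.13, 10.1 and 10.1 in Moderate IOP. Its scaled FPKM ran from 0 to 0.452, the groups overlapped, and the value of 0 in replicate 1 of Mild IOP allows up to 0.0581 FPKM (3 fragments, counting error only). Ctu2 and Gm20388 overlap the locus on the opposite strand and the library kit does not mark strand, so reads from any bases they share with Piezo1 could not be told apart, and overlap of exons was not checked. Piezo2 (chr18:63010213-63387183, minus strand), best known for the touch sense, was above 0 only in replicate 2 of Control, with 1.99 fragments. In the other 8 libraries it was listed at 0, and the 3-fragment limit lay between 0.034 and 0.0609 FPKM over the 9 libraries.

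Trpv4 and Trpv1, the swelling-sensitive and the capsaicin- and heat-sensitive channel, were also near 0. Trpv4 (chr5:114622154-114658421, minus strand) rested on 1.99 fragments in replicate 1 of Control and on 11 in replicate 1 of Mild IOP, where it reached 0.470 scaled FPKM, and it was listed at 0 in the other 7 libraries. Trpv1 (chr11:73238259-73260507, plus strand) had 4.0 fragments, all in replicate 1 of Mild IOP. The same library thus held the highest value of both genes and the 0 of Piezo1. P2rx7 (chr5:122643911-122691432, plus strand), the ATP receptor that opens at high ATP and is coupled to the inflammasome, was above 0 only in replicate 1 of Control. It stood there at 0.0553 FPKM with an upper bound of 0.452 FPKM, and was listed at 0 in the other 8 libraries. That wide interval gives 0.0779 of a fragment, which is not a usable count, since 3 fragments were 0.0928 FPKM in this library. The level that a value of 0 still allows, set at 3 fragments, was 0.108 to 0.194 FPKM for Trpv1, 0.113 to 0.202 for Trpv4 and 0.0739 to 0.132 for P2rx7. When all 16977 genes above 0 in at least 1 library were fitted with limma, the lowest FDR of these 5 members was 0.543. Piezo2, Trpv1 and P2rx7 were above 0 in 1 library each and Trpv4 in 2. At such levels the fit could hardly call a difference, so no conclusion is drawn from it.

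**Figure D2:**
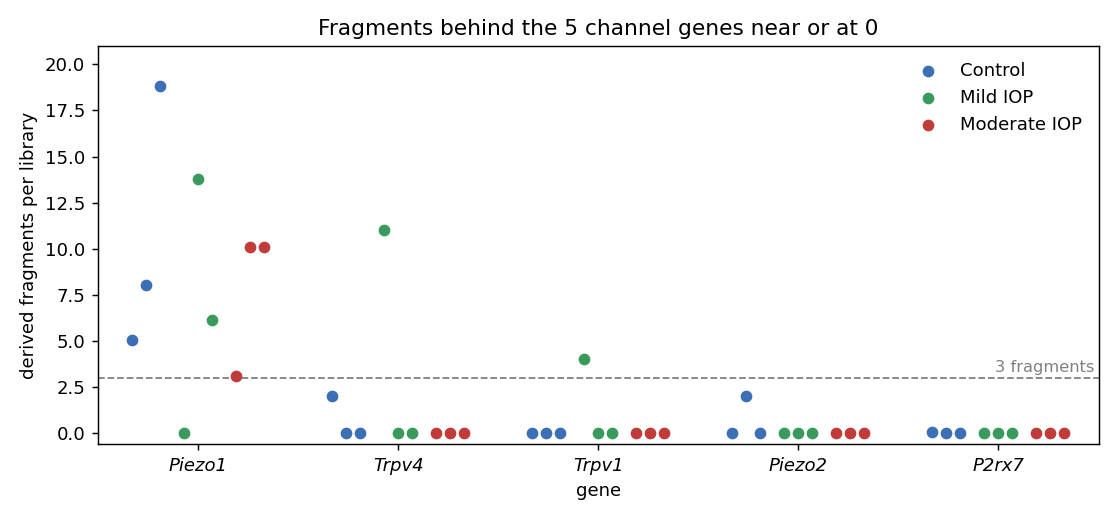
Fragments derived from the confidence intervals for Piezo1, Piezo2, Trpv1, Trpv4 and P2rx7 in each library, by group. Piezo1 reaches 18.8 fragments in replicate 3 of Control, Trpv4 reaches 11 in replicate 1 of Mild IOP, and the other values of Trpv4, Trpv1, Piezo2 and P2rx7 are at 4.0 or below.

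Panx1 (chr9:15005785-15045478, minus strand), the ATP release pore, was higher in Moderate IOP than in both other groups. Its scaled FPKM was 10.2, 11.4 and 9.60 in Control, 9.75, 10.6 and 11.9 in Mild IOP, and 23.3, 20.0 and 15.8 in Moderate IOP. Every Moderate IOP library was above every Control and every Mild IOP library, while Control and Mild IOP overlapped. The group means were 10.4 ± 0.913, 10.7 ± 1.07 and 19.7 ± 3.76, and the values rested on 96.0 to 342 fragments. As deposited, the lowest lower bound in Moderate IOP was 13.2 FPKM, against highest upper bounds of 13.3 FPKM in Control and 14.6 FPKM in Mild IOP, so the intervals of the closest libraries overlapped.

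Against Control, Panx1 in Moderate IOP had a log2 fold change of 0.84 (SE 0.18, 95% interval 0.44 to 1.25, limma FDR = 0.0654), a 1.80-fold rise (1.36 to 2.37). It was 1 of 4 tested members called, where 1.84% of all tested genes were called (0.951% higher), and 9.95% of all tested genes had the same complete separation upwards. The FDR did not pass in 6 of the 9 fits that left out a library, and was 0.188, 0.125 and 0.113 without replicates 1, 2 and 3 of Control, 0.113 without replicate 1 of Mild IOP, and 0.146 and 0.165 without replicates 1 and 2 of Moderate IOP. With the variance taken from the compared groups only, it was 0.146. The log2 fold change stayed between 0.72 and 0.99 in all 18 alternatives tried.

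Between the IOP groups, Panx1 was 1.75-fold higher in Moderate IOP than in Mild IOP (1.32 to 2.31, log2 fold change 0.81, SE 0.18, limma FDR = 0.0294). Of the 4 tested members 1 was called in this comparison, against 10.2% of all tested genes (7.03% higher), and 14.5% of all tested genes separated completely upwards. Without replicate 1 or replicate 2 of Mild IOP the FDR was 0.102 in both fits, and it passed in the other 16 alternatives. In Mild IOP against Control the log2 fold change of Panx1 was 0.039 (SE 0.18, 95% interval −0.36 to 0.44, limma FDR = 0.97). None of the 4 tested members was called there by limma, none had an unadjusted p below 0.05, and the shares of all tested genes were 0.399% called and 10.2% at such a p. In Moderate IOP, 1 member against Control and 2 against Mild IOP had an unadjusted p below 0.05, where 15.3% and 21.8% of all tested genes had one. The Moderate IOP libraries entered both of the called comparisons.

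**Figure D3:**
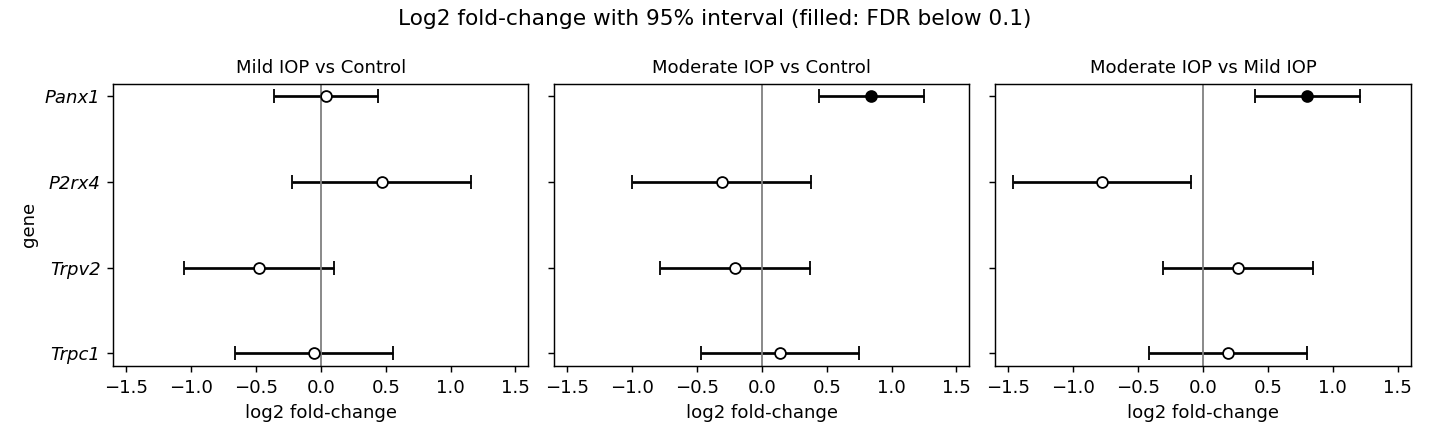
Log2 fold changes of the 4 tested members in the 3 comparisons, with 95% intervals from limma. The intervals of Panx1 lie above 0 in Moderate IOP against Control (0.44 to 1.25) and against Mild IOP (0.40 to 1.21), that of P2rx4 lies below 0 in Moderate IOP against Mild IOP (−1.47 to −0.090, FDR = 0.177), and the others include 0.

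Genes that mark cell types moved between the same pools. For the counts below, 0.951% of all tested genes were called higher and 0.889% lower in Moderate IOP than in Control. Against Mild IOP, 7.03% were called higher and 10.2% in either direction. The summed scaled FPKM of 9 RGC markers, led by Sncg and Nefl, was 1445 to 1531 in Control, 1063 to 1311 in Mild IOP and 2287 to 2431 in Moderate IOP, and 2 of the 9 were called higher in Moderate IOP than in Control and 6 of the 9 higher than in Mild IOP. The sum was carried by its most abundant genes, but the rise was not limited to them. In Moderate IOP, 6 of the 9 separated upwards from Control and 6 from Mild IOP, against 9.95% and 14.5% of all tested genes. The median log2 fold change of the 9 was 0.61 in each comparison. Pou4f2, an RGC transcription factor, did not rise over Control. It averaged 9.51, 8.33 and 8.91 in Control, Mild IOP and Moderate IOP (log2 fold change −0.099 in Moderate IOP against Control, limma FDR = 0.84). The 9 Müller glia and astrocyte markers, led by Apoe and Glul, summed to 115 to 128, 107 to 140.5 and 167 to 225, with 2 called higher in Moderate IOP in each comparison. These markers did not all rise. Aqp4 averaged 1.67 in Control against 1.42 in Moderate IOP, with overlap, and Slc1a3 2.94 in Mild IOP against 2.11 in Moderate IOP, with none. Between Mild IOP and Moderate IOP, 5 of the 8 tested separated upwards and 1 downwards, against 14.5% and 13% of all tested genes. The 6 amacrine markers, led by Gad1 and Slc6a9, summed to 760 to 802, 831 to 889 and 536 to 586, with 2 and 3 called lower in Moderate IOP than in Control and Mild IOP. The amacrine markers did not move as one, since Tfap2a averaged 5.67 in Control against 8.50 in Moderate IOP, with no overlap (limma FDR = 0.35), and Tfap2b 57.3 against 60.4. The 11 microglia and macrophage markers, led by C1qb and C1qc and none of them at 0, summed to 43.7 to 48.6, 34.1 to 54.9 and 56.1 to 60.1, and 1 of them was called, higher in Moderate IOP than in Mild IOP. The higher sum was not shared by the whole list. Its median log2 fold change in Moderate IOP was 0.12 against Control and −0.083 against Mild IOP. Csf1r averaged 3.03, 2.93 and 1.65 in Control, Mild IOP and Moderate IOP, with overlap. Of the 9 endothelium and pericyte markers, Cldn5 and Cdh5 were at 0 in every library, and the sum, led by Rgs5 and Kdr, was 2.36 to 5.75, 7.74 to 11.8 and 6.71 to 7.79.

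Photoreceptor and lens RNA separated Control from both IOP groups instead. The 7 photoreceptor markers, led by Sag and Gnat1, summed to 392 to 461 in Control, 254 to 297 in Mild IOP and 252 to 294.5 in Moderate IOP, and the 6 lens markers, led by Cryaa and Crygs, summed to 230 to 304, 0.888 to 1.65 and 0.443 to 1.62. The pools also differed in sex-linked RNA, since Xist was 4.74 ± 2.30, 1.57 ± 0.388 and 10.1 ± 0.895 and Ddx3y was 2.19 ± 0.868, 8.88 ± 0.547 and 0.349 ± 0.222 in Control, Mild IOP and Moderate IOP. The part of these differences in the Panx1 result was not tested, and with 1 pool per group it cannot be told apart from that of IOP. Set against the mean log2 level of the 9 RGC markers, a measure chosen after the values were seen, Panx1 lay at −2.31 to −2.13 in Control, −2.20 to −1.92 in Mild IOP and −2.17 to −1.68 in Moderate IOP, and these ranges overlapped. The means of this measure were −2.23, −2.02 and −1.91, so that of Moderate IOP was still above that of Control, and the difference was not tested. In bulk RNA, more cells of a type and more RNA per cell cannot be told apart.

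P2rx4 (chr5:122707557-122729042, plus strand), an ATP-gated cation channel also held in lysosomes, varied more among the Control libraries than within either IOP group. Its scaled FPKM was 10.1, 6.55 and 3.86 in Control, 9.65, 8.88 and 9.20 in Mild IOP, and 6.15, 6.18 and 3.14 in Moderate IOP. The Mild IOP and Moderate IOP libraries did not overlap, with Moderate IOP the lower, and Control overlapped both. The means were 6.82 ± 3.11, 9.24 ± 0.388 and 5.16 ± 1.74, on 34.2 to 139 fragments. The log2 difference of Moderate IOP from Mild IOP was −0.78 (SE 0.31, 95% interval −1.47 to −0.090), with an unadjusted p of 0.030 that did not pass adjustment (limma FDR = 0.177), and 13% of all tested genes separated completely downwards. Against Control it was 0.47 in Mild IOP (−0.22 to 1.16) and −0.31 in Moderate IOP (−1.0 to 0.38), each with a limma FDR of 0.68. In a ratio to the Panx1 level of the same library, P2rx4 was 0.984, 0.574 and 0.402 in Control, 0.990, 0.841 and 0.774 in Mild IOP, and 0.264, 0.309 and 0.199 in Moderate IOP. This ratio restates the levels of both genes and adds no separate test.

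Trpv2 (chr11:62574486-62600305, plus strand), a heat- and stretch-responsive relative of the capsaicin receptor, had 10.6, 7.32 and 6.30 scaled FPKM in Control, 7.39, 4.43 and 4.76 in Mild IOP, and 8.23, 5.18 and 7.06 in Moderate IOP. All 3 groups overlapped, and the means were 8.08 ± 2.26, 5.53 ± 1.62 and 6.82 ± 1.54 on 69.6 to 206 fragments. Against Control, the log2 fold change was −0.48 for Mild IOP (−1.05 to 0.10, limma FDR = 0.60) and −0.21 for Moderate IOP (−0.78 to 0.37, limma FDR = 0.76).

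Trpc1 (chr9:95706629-95750358, minus strand), a subunit that joins other Trpc proteins in stretch- and store-linked channels, had 4.23, 2.38 and 5.76 scaled FPKM in Control, 4.65, 3.30 and 3.4 in Mild IOP, and 3.92, 5.00 and 4.41 in Moderate IOP. The Control libraries spanned all the others, and the means were 4.12 ± 1.70, 3.79 ± 0.753 and 4.44 ± 0.536 on 56.0 to 132 fragments. Its log2 fold change against Control was −0.053 in Mild IOP (−0.66 to 0.56, limma FDR = 0.97) and 0.14 in Moderate IOP (−0.47 to 0.75, limma FDR = 0.85). The intervals of Trpv2 and Trpc1 are wide, and a missed threshold does not show that their levels were the same.

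The summed level of the 9 members was 29.7 ± 4.99 for the Control libraries and 29.6 ± 2.37 for those of Mild IOP, and 36.3 ± 5.55 for those of Moderate IOP. Panx1 made up 28.9 to 41.0% of the sum in Control, 30.3 to 40.4% in Mild IOP and 51.6 to 55.9% in Moderate IOP. The share follows from the Panx1 levels already given.

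The related channels and the ATP pathway were read from 7 lists of 84 genes, of which 39 passed the filter. Of these 39, limma called 0 in Mild IOP against Control, 1 lower in Moderate IOP against Control and 1 higher in Moderate IOP against Mild IOP, with 4, 4 and 8 at an unadjusted p below 0.05. Over all tested genes the shares were 0.399%, 1.84% and 10.2% called and 10.2%, 15.3% and 21.8% at such a p, so these counts do not set the lists apart. Their median log2 fold changes were 0.089, −0.10 and −0.14, beside 0.006, 0.004 and −0.016 for all genes tested. Both called genes belonged to the ATP receptor and inflammasome lists, and no other Trp channel, mechanosensitive channel, Piezo partner, ATP release or ATP breakdown gene was called.

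Among 24 other Trp channels 12 were tested and 6 were at 0 in every library (Trpv3, Trpv5, Trpm5, Mcoln2, Mcoln3 and Pkd2l1). The highest was Mcoln1, the lysosomal calcium channel, at a mean of 73.8 scaled FPKM, followed by Trpm3 at 12.2. Trpm3, a steroid- and heat-gated channel, had log2 differences of 0.65 in Mild IOP against Control (limma FDR = 0.47) and −0.74 in Moderate IOP against Mild IOP (limma FDR = 0.16), neither called. Of 14 other mechanosensitive and swelling-activated channels 9 were tested, led by Tmem63b, a stretch- and osmosensitive channel, at 27.9 and Lrrc8d, a subunit of the volume-regulated anion channel, at 15.6. Of 3 Piezo partners none was tested, Stoml3 and Mdfi were at 0, and Mdfic had a mean of 0.133.

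Of 8 genes listed for other ATP release routes, 3 were tested. Gjc1, a connexin, had a mean of 18.1 scaled FPKM and Panx2, a pannexin paralog, 5.42. Calhm2, Gja1 and Slc17a9 were under the filter, with means of 0.42, 0.14 and 0.04, and Panx3 and Calhm1 were at 0 in every library. Panx2 had a log2 fold change of 0.47 in Moderate IOP against Control (95% interval −0.0455 to 0.98, limma FDR = 0.37), and the test did not separate it from 0. On the breakdown side, Adk, which phosphorylates adenosine, had a mean of 88.6 and Alpl, a phosphatase, 24.5, with 9 of the 14 genes tested and Adora3 at 0.

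**Figure D4:**
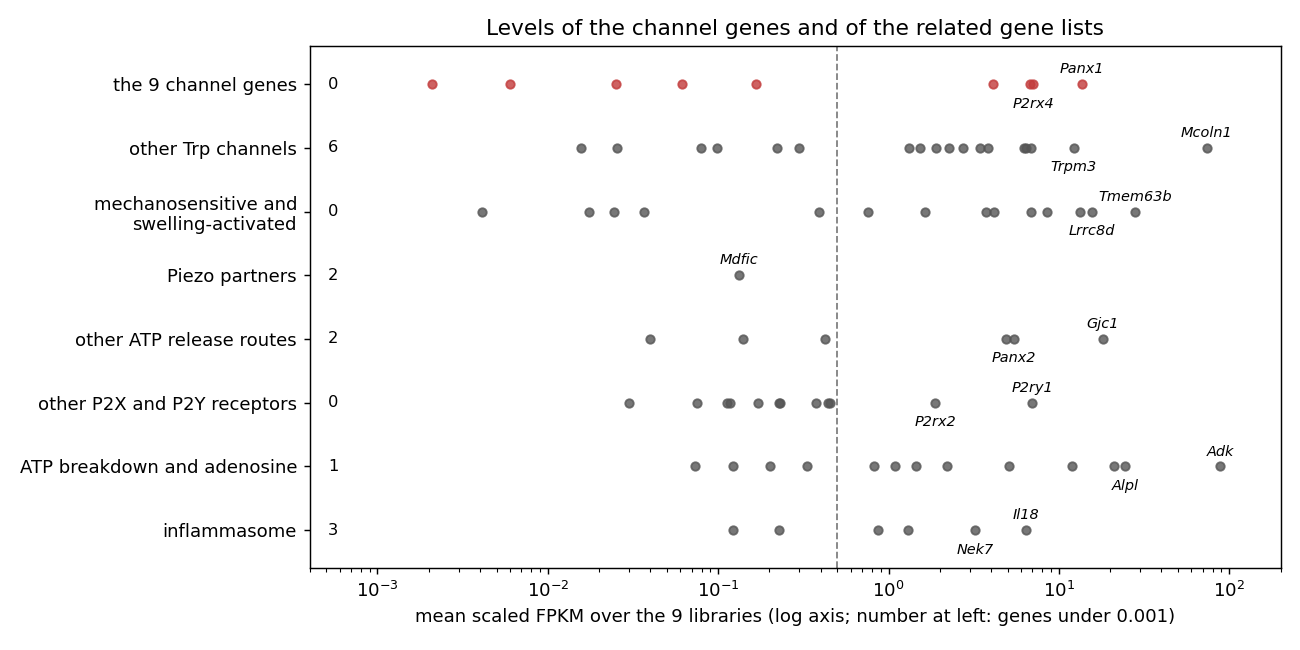
Mean scaled FPKM (log axis) of the members and of the genes in the 7 related lists, with points for genes and their mean over the 9 libraries. Panx1 (13.6) is the highest member, and Adk (88.6) and Mcoln1 (73.8) are the highest genes of the lists.

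P2rx2, a further ATP-gated channel, was the gene called lower in Moderate IOP than in Control, as were 0.889% of all tested genes. Its scaled FPKM was 3.51, 3.19 and 3.48 in Control, 3.02, 1.1 and 1.1 in Mild IOP, and 0.338, 0.999 and 0.188 in Moderate IOP. All Moderate IOP libraries lay below all Mild IOP libraries, which lay below all Control libraries. Of all tested genes, 9.48% separated downwards between Moderate IOP and Control, and 13% between Moderate IOP and Mild IOP. The share with the full order of the 3 groups was not counted. The log2 difference from Control was −1.58 (SE 0.33, limma FDR = 0.0553) in Moderate IOP, on 15.0 fragments in 3 libraries against 109, and −0.75 (limma FDR = 0.46) in Mild IOP. The FDR rose to 0.176, 0.135 and 0.102 without replicates 1, 2 and 3 of Control, and to 0.116 and 0.126 without replicates 1 and 3 of Moderate IOP. In the list of 12 other P2X and P2Y receptors only P2rx2 and P2ry1, a Gq-coupled ADP receptor with a mean of 6.98, were tested.

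Il18, a cytokine released by inflammasome activity, was called higher in Moderate IOP than in Mild IOP. It was at 6.05, 4.88 and 8.13 scaled FPKM in Control, 3.71, 3.30 and 2.6 in Mild IOP, and 9.79, 12.4 and 7.22 in Moderate IOP. Mild IOP lay below both other groups, and Control and Moderate IOP overlapped. Of all tested genes, 14.5% separated upwards between Mild IOP and Moderate IOP and 7.03% were called higher. The log2 difference was 1.34 (SE 0.25, limma FDR = 0.0146), with −0.79 in Mild IOP (limma FDR = 0.27) and 0.55 in Moderate IOP (limma FDR = 0.33) against Control. Of the 9 inflammasome genes 4 were tested, including Nek7 at a mean of 3.24, and Nlrp3, Casp1 and Casp4 were at 0 in every library. Nlrp3 and Casp1 are genes of the inflammasome, to which P2rx7, itself near 0 here, is coupled.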

How the data were processed

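RNA of purified RGCs was measured by RNA sequencing in 9 libraries, 3 technical replicates each of Control, Mild IOP and Moderate IOP, grouped by their sample labels. cDNA was primed with oligo-dT (SMART-seq v4), tagged with Nextera XT and read as pairs on a HiSeq sequencer. The authors estimated the deposited FPKM per locus with cufflinks, separately in each library, after alignment to mm10. The methods name bowtie2 and the submitters' processing notes name TopHat2, without version numbers. FPKM of loci sharing a symbol was summed. Starts in the files count from 0 and are printed counting from 1.

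Fragments were derived from the deposited FPKM as (2 × FPKM / (upper bound − FPKM)) squared, and depth from genes whose GENCODE M21 transcript reached 2000 nt and which held at least 100 fragments. Limits from a value of 0 use 3 fragments. Intervals cover counting error only, and reads without molecular identifiers are not independent molecules. Values were divided by median-of-ratios factors. log2(scaled FPKM + 1) of genes with a mean of at least 0.5 entered 1 limma model (limma 3.58.1, R 4.3.3) with a mean per group, all 9 libraries and a variance trend. Each comparison had its own Benjamini-Hochberg adjustment, and a gene was called at an FDR below 0.1. Failed estimates (2 genes) were left out. An exact permutation test of 3 against 3 cannot go below a p of 0.1. Python 3.11.15 (pandas 2.3.3, numpy 2.4.6, matplotlib 3.10.9, scipy 1.17.1) was used for tables and plots, and the fit was tested on simulated data. No sequencing batch is named in the sources used here.

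The members and gene lists were chosen with earlier results of these data known. Named genes are the 9 members, each called gene of the related lists, the 2 highest genes of every related list, the 2 highest markers of each cell type list with any at 0 in every library and, for each member with a mean of at least 1, the 2 genes with the highest correlation over the 9 libraries. Outside this rule, and chosen after their values were seen, are the list genes at 0, the sex-linked genes and the genes that overlap Piezo1. The same holds for Pou4f2, Tfap2a, Tfap2b, Aqp4, Slc1a3, Csf1r, Gja1, Slc17a9 and Calhm2. Members outside the filter are reported as values. The result of 1 marker list is not reported here. Alternatives were scaling, pseudocount, filter, failed estimates, variance, a replicate block, the locus per symbol and each library left out. Reads, cuffdiff tests, IOP readings and quantitative PCR were not analysed here.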

Additional observations from a re-analysis of the deposited data

Results flagged for a closer look

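Panx1 differed between the IOP groups by a test of that difference, with a log2 difference of 0.81 of Moderate IOP over Mild IOP (limma FDR = 0.0294), higher in 3 of 3 Moderate IOP libraries than in all Mild IOP libraries. Il18 differed in the same comparison by 1.34 (limma FDR = 0.0146), again with all 3 Moderate IOP libraries above all Mild IOP libraries. Of all tested genes, 7.03% were called higher in this comparison and 14.5% separated upwards without overlap.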

How the results depend on the processing

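Each result was recomputed under 18 alternatives, of which 9 each left out a library. Panx1 stayed higher in Moderate IOP than in Control and in Mild IOP in all 18, and was called in 10 and 16 of them. Leaving out 1 library gave FDR values of 0.0599 to 0.188 and 0.0274 to 0.102. Members called in these comparisons ranged from 0 to 1 when a library was left out, and in Moderate IOP against Control there were 0 with the variance from the compared groups only. P2rx4 was not called in Moderate IOP against Mild IOP in any alternative (FDR 0.115 to 0.376). P2rx2 was called in 12 of 18 and Il18 in 18 of 18. All genes called in Mild IOP against Control numbered 52, and 25 with upper-quartile scaling, 24 with no filter, 11 with the variance from the compared groups only and 15 to 183 without 1 library, with 183 reached without replicate 3 of Mild IOP. In Moderate IOP against Control there were 240, and 134 with the variance from the compared groups only and 61 to 287 without 1 library. In Moderate IOP against Mild IOP there were 1324, and 519 to 1399 without 1 library. Some log2 fold changes near 0 turned sign. Trpc1 in Mild IOP against Control was 0.020 with upper-quartile scaling, 0.18 without replicate 3 of Control and 0.015 without replicate 2 of Mild IOP, with a lowest value of −0.32 without replicate 2 of Control, and in Moderate IOP against Control it ranged from −0.13, without replicate 2 of Control, to 0.37 without 1 library. Panx1 in Mild IOP against Control was −0.013 without replicate 3 of Control and −0.033 without replicate 3 of Mild IOP. The cause of these moves was not tested. Replicate numbers did not pair the libraries, since deviations from the group means correlated at −0.005 to 0.044 between same-numbered libraries and 1 of 9 libraries correlated best with its own number. With a replicate block, 25, 135 and 1120 genes were called in the 3 comparisons, with 0 members called in Moderate IOP against Control (Panx1 FDR 0.124, P2rx2 FDR 0.103) and 1 in Moderate IOP against Mild IOP. Piezo1, Piezo2, Trpv1, Trpv4 and P2rx7 rested on 18.8 fragments or fewer per library.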

Other observations

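The genes most like each detected member were found by the Pearson correlation of log2 levels over the 9 libraries, which share 3 pools, and are given as a description. They are the highest values over the 13043 tested genes, so a high r follows from that selection. For Panx1 they were Prss56, a serine protease gene (r = 0.98), and Ccl21c, a chemokine gene with near-identical copies among which reads could be split (r = 0.97). Prss56 was listed at 0 in every Control library and averaged 0.120 scaled FPKM over the Mild IOP libraries and 1.87 over the Moderate IOP libraries, and Ccl21c averaged 0.000719, 0.000834 and 5.30 in the 3 groups. Both were thus nearly absent outside Moderate IOP and passed the filter only through that group. For P2rx4 they were Tmem198 and Mcm2, a subunit of the replicative helicase (r = 0.95 each), for Trpv2 they were Ccdc65 (r = 0.93) and Gm128 (r = 0.92), and for Trpc1 they were Lyrm9 (r = 0.92) and Pitpnc1 (r = 0.91). Among the members themselves the correlation was −0.33 for Panx1 with P2rx4 and −0.36 for Trpc1 with P2rx4, and the other pairs lay between 0.003 and 0.083.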
